A study of Mus musculus with 12 samples.

Results

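The 35 genes described here are interferon-stimulated genes, given as a list of symbols and read on Affymetrix mouse arrays through every probe set that the platform annotation assigns to a single one of them. Of the 35 names, 33 were measured, by 60 of the 45037 probe sets on the arrays, and 33 of the 18193 genes that could be named were therefore members. Isg15 was represented only by a probe set that carries more than 1 gene symbol, and Ifi44 by no probe set named here, so both were left out. A probe set is a group of short oligonucleotides that reads 1 transcript, and where a gene had several, the one with the highest mean over all arrays stood for it.

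The study asked how hematopoietic stem cells (HSCs) affect the expression profile of bone marrow mesenchymal stem cells (MSCs). The treated group held 6 cultures of MSCs with HSCs and the control group 6 cultures of MSCs only, each read on its own array. In the treated cultures 3000 MSCs, sorted as Sca-1+ and Pdgfr-α+ cells, and 7000 HSCs, sorted as Lin-, Sca-1+ and c-Kit+ cells, were put into a well, and in the control cultures 3000 MSCs and 0 HSCs. In both groups the cells came from bone marrow of male C57BL/6 mice aged 6 weeks by the labels, and total RNA was taken at day 6. The sources do not say whether these co-cultures were direct or through a membrane insert, whether a sort preceded the RNA at day 6, or which samples shared a mouse. P-values therefore measure only the spread between these samples, which may be technical.

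Interferons are secreted proteins that alert cells to viruses and other dangers. Type I interferons bind a receptor of Ifnar1 and Ifnar2, the kinases Jak1 and Tyk2 act on Stat2 among other factors, and Stat2 takes part with Irf9 in a complex that binds interferon-stimulated response elements in the promoters of induced genes. Interferon gamma signals through another receptor, and genes induced by it often hold gamma-activated sites. Macrophages and stromal cells keep a low level of this program without infection, which is called tonic interferon signaling, and hematopoietic stem cells are known to respond to interferon.

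The member promoters were read to show the elements through which such genes are known to be induced. In the RefSeq table of assembly GRCm38.p6, which gives 300 bases for each gene start, 250 before it and 50 after it, 30 of the 35 names were found, with 36 promoters. The core of the response element was searched as a pair of GAAA with any 2 bases between them and that of the gamma-activated site as TTCNNNGAA, on both strands. The first was found in 14 of the 36 member promoters (38.9%) and in 3.44% of all 32851 promoters, and the second in 10 of the 36 (27.8%) and in 8.30% of all, with the letters of both overlapping in 2 member promoters. Windows around the first motif are shown for 4 genes whose signals moved together across the arrays and, after them, for 2 whose signals did not, each on the strand of its gene, with the motif or its reverse complement in capitals. They lie before the gene start at chr19:34640784-34640833 (Ifit1, plus strand), chr19:34583387-34583436 (Ifit3, plus), chr8:71537567-71537622 (Bst2, minus), chr12:26456543-26456592 (Rsad2, minus), chr10:128270256-128270305 (Stat2, plus) and chr3:142559979-142560034 (Gbp3, plus).
Ifit1: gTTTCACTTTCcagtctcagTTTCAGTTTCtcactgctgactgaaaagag
Ifit3: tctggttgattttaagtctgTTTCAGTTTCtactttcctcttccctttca
Bst2: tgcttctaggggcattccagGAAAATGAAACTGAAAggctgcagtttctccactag
Rsad2: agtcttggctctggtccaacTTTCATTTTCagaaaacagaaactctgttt
Stat2: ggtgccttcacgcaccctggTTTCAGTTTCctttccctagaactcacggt
Gbp3: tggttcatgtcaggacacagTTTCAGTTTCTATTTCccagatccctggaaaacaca

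The deposited signal is linear, and every array had a 2% trimmed mean between 496.6 and 497.3. Differences are treated minus control on the scale log2(signal + 16), which understates the change of dim transcripts, and groups were compared with limma, an across-gene linear model, and p-values were adjusted by Benjamini and Hochberg's method across all 45037 probe sets. The number of arrays limits the precision. The arrays hold signals that go against their labels. Xist, which is transcribed in female cells, had a signal of 13136 to 17840 on all 6 treated arrays and of 60.5 to 21978 on control arrays, where only numbers 3 and 4 were bright. Eif2s3y, a Y-linked gene, had signals up to 1331 on treated arrays and up to 2845 on control arrays, and was near the floor on arrays 3 and 4 of both groups. The counts, the tone and the log2 differences of the genes given with an SE are therefore given with and without the arrays numbered 3 and 4. Without them the summed signal of 4 sex-linked genes was 15232 to 18234 on treated arrays and 4305 to 4594 on control arrays. All Xist-bright arrays left were then treated ones, so group and this signal cannot be told apart in that comparison. Ptprc, which encodes the hematopoietic marker CD45, ran from 11519 to 12642 on treated arrays and from 10425 to 13144 on control arrays, and the macrophage genes Csf1r, Lyz2 and Cd68 were bright in both groups. Pdgfra, the gene of the MSC sort marker, ran from 407 to 1464 over all arrays, and Kit, which encodes c-Kit, was dim on all of them, at 2.30 to 67.2. In such bulk samples fewer cells of a type and less RNA per cell cannot be told apart.

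No interferon-stimulated gene differed between co-cultures and MSCs alone by limma's test. Of the 60 member probe sets, 0 passed the adjusted threshold of 0.05 (adjusted p = 0.99998 from limma for each of them), where 2 of 45037 probe sets did in all (0.00444%). Before adjustment, p was under 0.05 for 2 of the 60 with a higher signal in co-culture, where this held for 2.81% of all probe sets, and for 2 with a lower signal, where it held for 1.55%. The higher ones were dim second probe sets of Xaf1 and Dhx58, and the lower ones were the brighter probe set of Stat2 and a dimmer one of Adar, genes whose other probe sets did not share the difference. Run on the same values, the methods' t-test called 4 of the 60 member probe sets at an unadjusted threshold of 0.05, where it called 1868 of all 45037 (4.15%), and 0 after adjustment, where it called 1 (0.00222%). For no member probe set did the groups separate, with every treated array above every control array for 0.124% of all probe sets and below it for 0.0733%.

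Of the 33 genes, 12 were higher and 21 lower in mean in the co-cultures, where 53.2% of all genes were higher and 46.8% lower. The median log2 difference was -0.04 over the members and 0.01 over all genes. Without the arrays numbered 3 and 4, 14 of the 33 genes had a higher mean and the median was -0.01, and within those numbers 14 had a higher mean and the median was -0.04. The count moved to 7 without control 4, to 20 without control 3 and to 19 without either treated 1 or control 1, so its direction rested on single arrays. For the 12 genes whose difference is printed with an SE, the adjusted p from limma without the arrays numbered 3 and 4 ran from 0.469 for Stat2 to 0.976 for Ifit2.

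**Figure D1:**
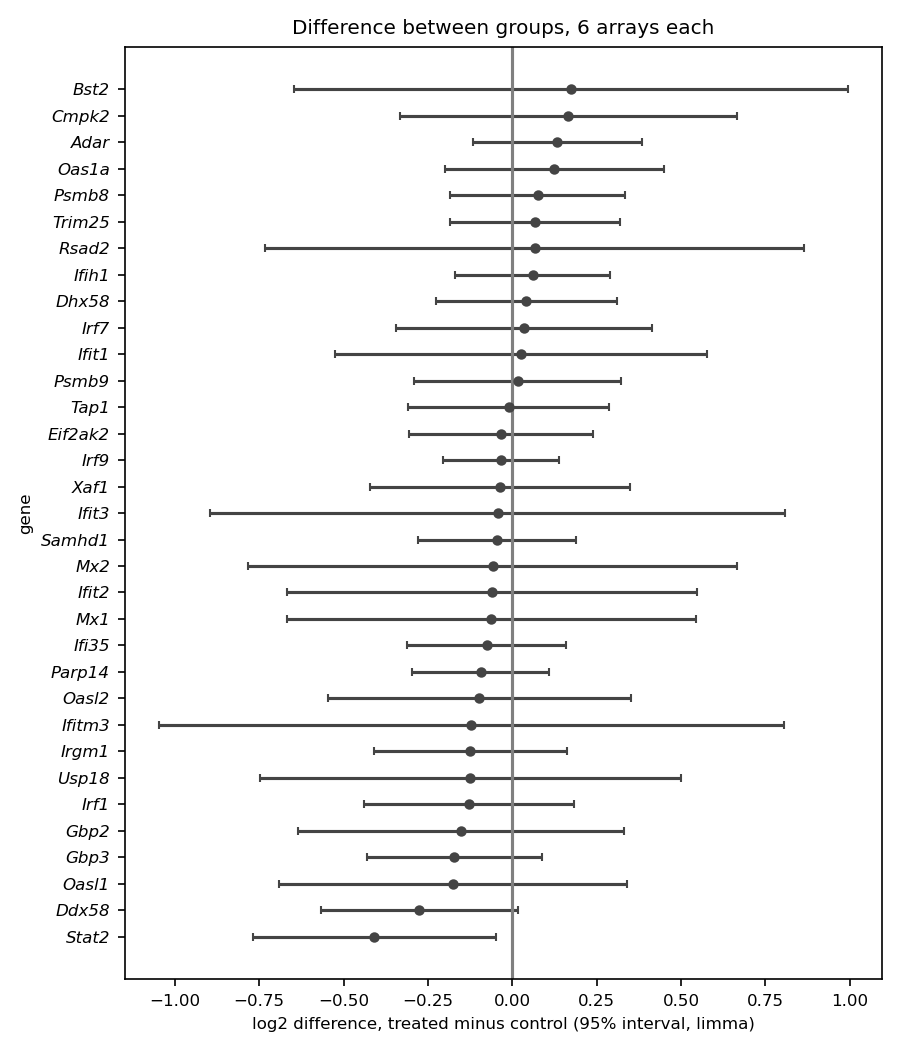
Treated minus control log2 difference of each of the 33 member genes (x axis, log2 units) with its 95% interval from limma, 6 arrays per group, ordered by size. The points lie between -0.41 for Stat2 and 0.17 for Bst2, and the widest interval, that of Ifitm3, runs from -1.05 to 0.81.

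The transcription factors among the members were Stat2, Irf9, Irf7 and Irf1. Stat2, a factor of the response to type I interferon, had signals of 90.8, 123 and 188.5 (lowest, median and highest) on treated arrays, against 155, 175 and 231 on control arrays. Of the treated arrays 3 and 4 lay within the control range, while the rest lay below it. The log2 difference was -0.41 (SE 0.17), with the smallest p among the 33 genes, and it was -0.60 (SE 0.13) without the arrays numbered 3 and 4. On all arrays a dimmer probe set of Stat2 differed by 0.01. Irf9, the DNA-binding part of the same complex, was the steadiest of all members, at 677 to 785 on treated arrays and 681 to 785 on control arrays. Irf7, which amplifies type I interferon production, ran from 126 to 193 on treated arrays and from 105 to 220 on control arrays. Irf1, a factor induced by interferon gamma, had its highest signal, 1502, on treated 3 and its lowest, 966, on treated 4.

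The IFIT proteins bind viral RNA and block its translation. Ifit2 had signals of 287, 493 and 538.5 on treated arrays, against 284, 384 and 790.5 on control arrays. Controls 1 and 3 stood above all other arrays, and the rest of the groups overlapped. The difference was -0.06 (SE 0.28), and -0.10 (SE 0.33) without the arrays numbered 3 and 4. Ifit3 had signals of 148, 319 and 617 on treated arrays, against 136, 298 and 602 on control arrays. Its highest array was treated 3, followed by controls 3 and 1, and its lowest were control 4 and treated 1, with a difference of -0.04 (SE 0.39), which was -0.33 (SE 0.38) without numbers 3 and 4. Ifit1 followed the same arrays, at 94.7 to 203 on treated and 79.7 to 263 on control arrays.

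The oligoadenylate synthetases detect double-stranded RNA and make the activator of the nuclease RNase L. Oas1a had signals of 1501, 1699 and 2038 on treated arrays, against 1224, 1575.5 and 2061 on control arrays. Controls 5 and 6 were the lowest and control 4 the highest, and the groups overlapped. The difference was 0.12 (SE 0.15), and it was 0.37 (SE 0.16) without the arrays numbered 3 and 4. Oasl1, which in mice restrains Irf7 translation, had signals of 32.1, 73.8 and 92.7 on treated arrays, against 40.0, 85.6 and 103 on control arrays. The arrays numbered 6 were the lowest of both groups. Oasl2, a synthetase-like protein, ran from 174 to 246.5 on treated arrays and from 114 to 343 on control arrays.

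Mx proteins are dynamin-like GTPases against viruses, and C57BL/6 mice carry a defective Mx1. Mx1 had signals of 40.4, 67.4 and 85.8 on treated arrays, against 27.2, 63.6 and 128 on control arrays. Controls 3 and 1 were the highest and control 4 the lowest. Mx2 was near the floor on most arrays, with 5.40, 10.8 and 54.7 on treated arrays, against 6.70, 12.4 and 60.7 on control arrays. Treated 4 and control 5 were the only arrays above 15 in signal.

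Usp18, the protease that removes Isg15 from proteins and damps the interferon receptor, had signals of 64.4, 140 and 174 on treated arrays, against 88.0, 129 and 270 on control arrays. Treated 1 stood below all other arrays, and controls 3 and 1 above them.

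Ddx58 encodes RIG-I, a sensor of viral RNA in the cytoplasm. Its signals were 550, 593 and 717.5 on treated arrays, against 653, 703 and 1104 on control arrays. Control 1 stood far above all others, and treated 3 and 4 lay within the control range. The difference was -0.28 (SE 0.14), -0.16 without control 1 and -0.41 (SE 0.18) without numbers 3 and 4, and its other probe sets differed in both directions. Adar, which edits adenosine to inosine in double-stranded RNA, had signals of 472, 512 and 539 on treated arrays, against 347, 482 and 557 on control arrays. The groups overlapped, with controls 3 and 4 the lowest. The difference was 0.13 (SE 0.12), and it was -0.04 (SE 0.11) without the arrays numbered 3 and 4. Among the other genes of this role, Ifih1, the sensor MDA5, ran from 947 to 1272 on treated arrays and from 942 to 1231 on control arrays. Dhx58, the regulator LGP2, ran from 226 to 294 on treated and from 213 to 314 on control arrays. Trim25, a ubiquitin ligase of the RIG-I pathway, ran from 3940 to 6011 on treated arrays and from 4214.5 to 5270 on control arrays, and Eif2ak2, the kinase PKR, from 382 to 572 and from 422 to 628 in the same order.

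Interferon-induced GTPases attack the vacuoles of intracellular pathogens. Gbp2 had signals of 274, 478 and 739 on treated arrays, against 327, 534 and 644.5 on control arrays. The highest and the lowest array, 3 and 1, both belonged to the treated group. Gbp3, another guanylate-binding protein, had signals of 191, 235 and 286 on treated arrays, against 222, 284 and 317 on control arrays. The groups overlapped, and the difference was -0.17 (SE 0.12), or -0.31 (SE 0.14) without numbers 3 and 4. Irgm1, a GTPase of the IRG family, ran from 1121 to 1880 on treated and from 1310 to 1799 on control arrays.

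Psmb8 and Psmb9 are subunits of the immunoproteasome, and Tap1 carries its peptides into the endoplasmic reticulum. Psmb8 had signals of 2517, 2803 and 3388 on treated arrays, against 2168, 2615 and 3335 on control arrays. Treated 5 was the highest and control 5 the lowest, and the difference was 0.07 (SE 0.12), or 0.18 (SE 0.15) without numbers 3 and 4. Psmb9 had signals of 1164, 1395 and 1705 on treated arrays, against 1136, 1323 and 1746.5 on control arrays. Control 3 and treated 5 were the highest. Tap1 ran from 439 to 626 on treated and from 417 to 617 on control arrays.

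Ifitm3 and Bst2 are membrane proteins that restrict viruses, and Ifitm3 had the widest spread of all members, with an SD of 0.78 log2 units over the arrays. It blocks entry of viruses through endosomes and had signals of 3497, 9179 and 14041 on treated arrays, against 4562, 8643 and 17069 on control arrays. Control 1 was the highest and treated 1 the lowest, so both ends came from arrays of number 1. The difference was -0.12 (SE 0.43, 95% interval -1.05 to 0.81), and -0.38 (SE 0.53) without numbers 3 and 4. Bst2 encodes tetherin, which holds budding virus at the cell surface. Its signals were 954, 1794 and 2705 on treated arrays, against 742, 1283 and 3468 on control arrays. Control 1 was the highest, and control 5 the lowest.

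Rsad2, or viperin, and Cmpk2 are neighbouring genes whose enzymes make an antiviral nucleotide and mitochondrial nucleotides. Rsad2 had signals of 561, 1024 and 1574 on treated arrays, against 507.5, 746 and 1975 on control arrays. Controls 3 and 1 were the highest, and the difference was 0.07 (SE 0.37, 95% interval -0.73 to 0.87), or 0.24 (SE 0.46) without numbers 3 and 4. Cmpk2 had signals of 148, 208 and 272 on treated arrays, against 126, 148 and 319 on control arrays, and a log2 difference of 0.17 (SE 0.23), which was 0.22 (SE 0.29) without numbers 3 and 4 and -0.05 when all its probe sets were averaged. Samhd1, which degrades the nucleotides that viruses copy, had signals of 1176.5, 1335 and 1587.5 on treated arrays, against 1103, 1398 and 1510 on control arrays. Control 3, among the highest for Rsad2, was the lowest for Samhd1.

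Of the remaining genes, Parp14, an ADP-ribosyltransferase, had signals of 1154, 1264 and 1487 on treated arrays, against 1228, 1334.5 and 1576 on control arrays. The difference was -0.09 (SE 0.09), or -0.19 (SE 0.11) without numbers 3 and 4. Xaf1, a partner of the apoptosis inhibitor XIAP, had signals of 915, 1159 and 1421 on treated arrays, against 874, 1095 and 1659 on control arrays. Controls 1 and 3 were the highest. Ifi35 ran from 2486.5 to 3015 on treated and from 2499 to 3622 on control arrays.

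**Figure D2:**
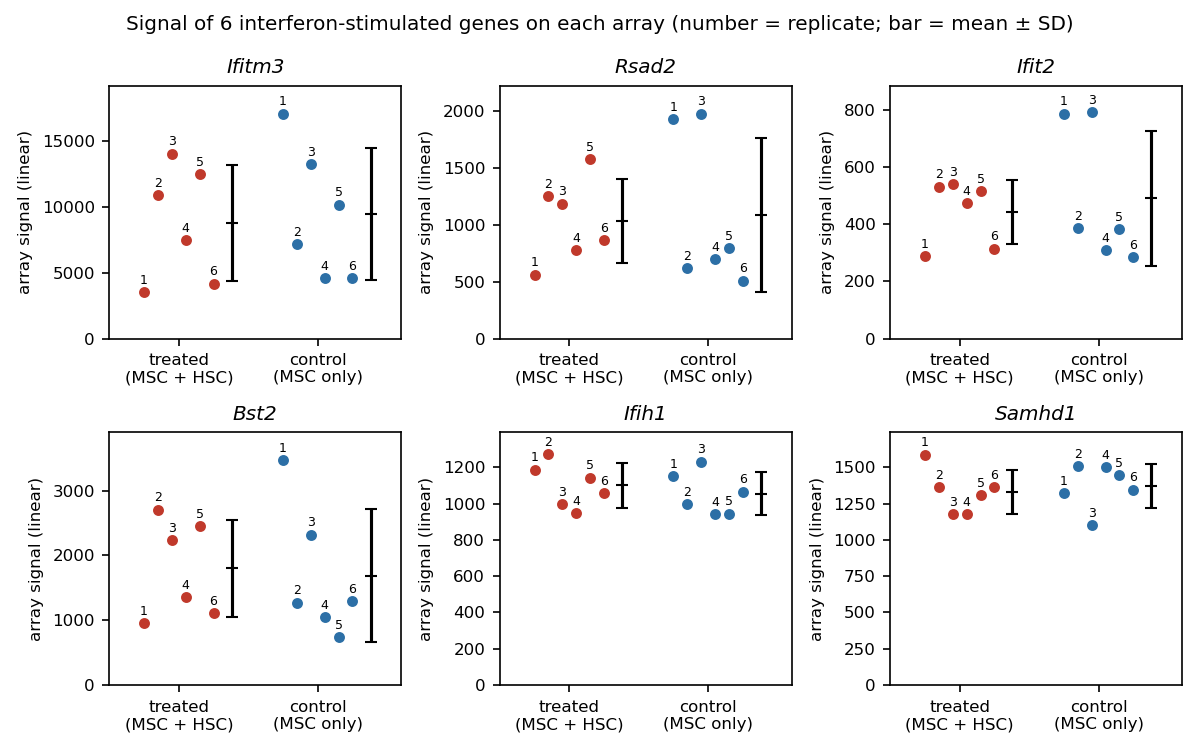
Linear array signal (y axis, from 0) of 6 member genes on every array, a point per array with its replicate number, and the mean ± SD of 6 arrays per group at the side. Ifitm3, Rsad2, Ifit2 and Bst2 spread widely in both groups with control 1 at or near the top, while Ifih1 and Samhd1 stay within a narrow range.

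The spread therefore lay between arrays of the same group. The highest signal was more than 2 times the lowest for 16 of the 33 genes, more than 3 times for 10 and less than 1.5 times for 6. The median SD over the arrays was 0.26 log2 units for the members, against 0.31 for all genes, which include many dim ones. Among genes above the median level it was 0.22 for the 26 members and 0.18 for all 9096. Controls 1 and 3 held the highest signal of 9 and 8 members, and treated 3 of 5, among them Irf1, Gbp2 and Irgm1.

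The interferon tone of an array was taken as the mean over the 33 genes of log2(signal + 16), after centring each gene on its mean. It was -0.27, 0.14, 0.18, -0.08, 0.14 and -0.22 log2 units on treated 1 to 6, against 0.39, -0.11, 0.31, -0.20, -0.05 and -0.22 on control 1 to 6. Controls 1 and 3 were the highest, treated 1 the lowest, and the groups overlapped through most of their range. The mean tone was -0.02 ± 0.20 over the treated arrays and 0.02 ± 0.26 over the control arrays (SD, n = 6 each), a difference of -0.04. The whole range was 0.67 log2 units, or 1.59-fold. Without the arrays numbered 3 and 4 the difference was -0.06, and within them it was -0.00. Leaving out each array in turn gave differences from -0.09 to 0.03. On control 1, 30 of the 33 genes lay above their own mean, against 6 on treated 6, the fewest.

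**Figure D3:**
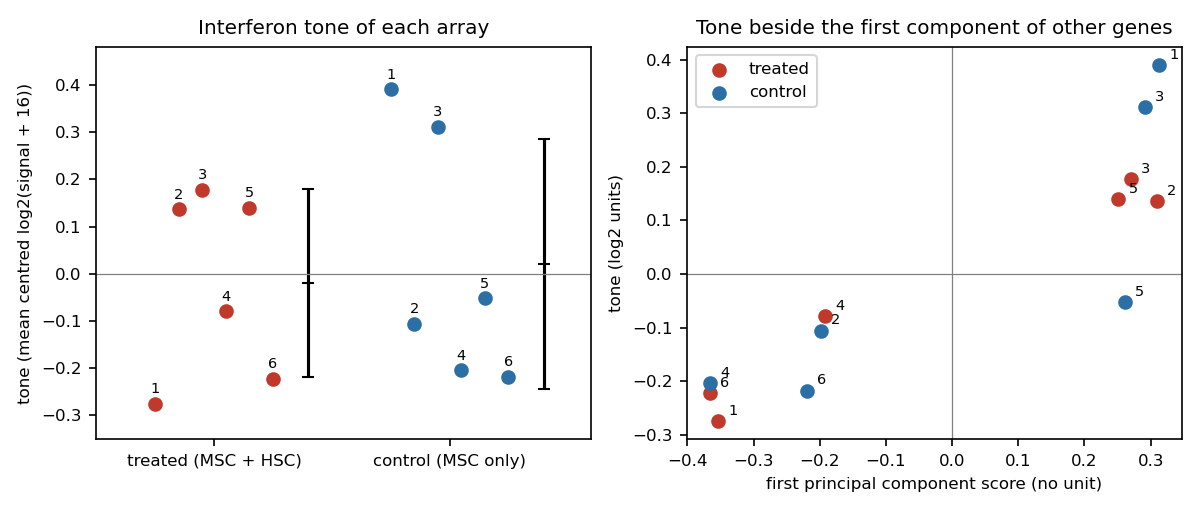
Left, interferon tone of each array (log2 units) by group, numbered by replicate, with mean ± SD of 6 arrays. Right, the same tone against the score of each array on the first principal component of 18049 genes outside the interferon lists. The groups overlap, and the 6 arrays with a positive score are those with the highest tone, from -0.05 to 0.39.

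Many of the genes moved together across the arrays, within both groups. The median Pearson correlation over the 528 pairs of members was 0.37 over the 12 arrays (Spearman 0.36), against 0.005 over all pairs of genes. These arrays share a scaling, and genes are not independent replicates, so the value is a description. It was 0.39 after the group means were removed, 0.38 within the 6 treated and 0.47 within the 6 control arrays. It was 0.26 without controls 1 and 3, the arrays farthest from the median tone, 0.23 after each array was centred on the median of its genes, 0.41 without the arrays numbered 3 and 4 and 0.53 within those 4 arrays.

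The members differed in how closely they followed the others. For each gene the tone was recomputed without it, and 13 of the 33 genes (39.4%) then had a Pearson r over 0.8. With the full tone, 3.14% of all other genes had such an r, and 4.96% of other genes above the median level, where 26 members lie. After median centring the share was 27.3% of the members and 1.69% of all other genes. The closest were Ifit2 (r 0.97, Spearman 0.93), Ifitm3 (r 0.94, Spearman 0.97), Rsad2 (r 0.92, Spearman 0.84) and Ifit3 (r 0.91, Spearman 0.91), and without controls 1 and 3 their r were 0.94, 0.95, 0.85 and 0.89. All 3 probe sets of Rsad2 gave an r from 0.88 to 0.92, but the dimmer probe sets of Xaf1 (r -0.37), Dhx58 (r -0.16 and 0.32) and Tap1 (r 0.13 to 0.36) did not share the high r of the brightest one. Xaf1, Dhx58, Ifit1, Psmb9, Bst2, Mx1, Usp18, Irf7 and Tap1 followed with r from 0.89 down to 0.80. Within the IFIT family the median pairwise r was 0.90, and Bst2 and Ifitm3 had an r of 0.76 with each other.

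At the other end, Samhd1 moved against the tone (r -0.64, Spearman -0.71), and all 5 of its probe sets had a negative r. Adar (r -0.25), Mx2 (r -0.17) and Gbp3 (r -0.09) did not follow it. The sensors and signaling factors Ddx58, Ifih1, Irf9, Stat2 and Trim25 had r from 0.26 to 0.43, and Oas1a and Eif2ak2 0.25 and 0.20. Cmpk2, Parp14, Irf1, Gbp2, Irgm1, Ifi35 and Psmb8 lay between, with r from 0.64 to 0.77, and Oasl1 and Oasl2 had 0.46 and 0.38. Dimmer probe sets of Eif2ak2 reached an r of 0.61 and of Ddx58 0.69, and the other probe sets of Adar had 0.25 and 0.57. The low value of these 3 genes therefore depended on the probe set. In the other direction, dimmer probe sets of Cmpk2, Parp14, Gbp2, Ifi35 and Psmb8 had a lower r, from 0.20 to 0.50. Those of Trim25 had 0.13 and -0.40, and that of Stat2 had -0.48. The motif of the response element was in the promoters of 5 of 10 members with an r of 0.8 or more and of 8 of 18 with a lower r, counting those measured and found in the promoter table. As the printed windows show, Stat2 and Gbp3 hold the motif and did not follow the tone, and Ifit2, which followed it most closely, has no match to it in its promoter.

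**Figure D4:**
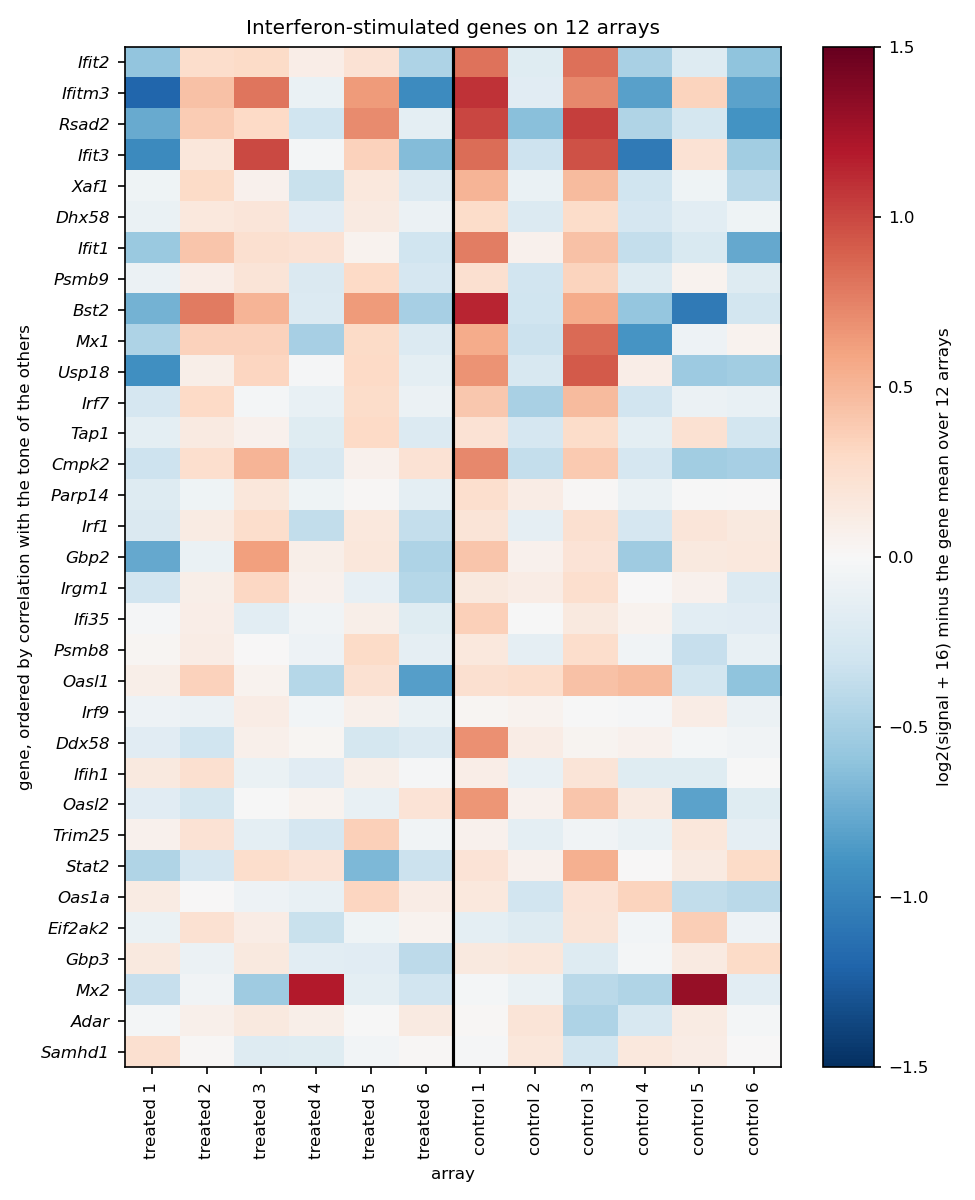
Log2(signal + 16) minus the gene's mean over all arrays, in color from -1.5 to 1.5, for the 33 genes (rows, ordered by r with the tone of the others) on the 6 treated and 6 control arrays (columns). The upper rows are red on controls 1 and 3 and blue on treated 1 and 6, and the lower rows share no such pattern.

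The tone ran beside a larger pattern of the arrays. The first principal component of 18049 genes outside the member and pathway lists held 23.5% of their variance, and it was positive on treated 2, 3 and 5 and controls 1, 3 and 5. These were the 6 arrays with the highest tone, with control 5 at -0.05 just above treated 4 at -0.08. Within the 6 positive arrays the median pairwise r of the members was 0.29, and within the 6 negative arrays it was -0.00. Ifit2, Ifitm3, Ifit1, Bst2 and Ifit3 had an r from 0.69 to 0.99 with the tone of the others on both sides, while among the negative arrays Psmb9 (r -0.69), Dhx58 (-0.53), Irf7 (-0.29), Tap1 (-0.27), Xaf1 (-0.24) and Mx1 (-0.22) had a negative r and Rsad2 had 0.21. On control 5 the genes parted. Its first component was positive, yet Bst2, Oasl2, Cmpk2 and Psmb8 had their lowest signal of all arrays there. Mx2 and Eif2ak2 had their highest signal on it, Irf9 shared its highest with treated 3, and Ifitm3 read 10148.5.

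**Figure D5:**
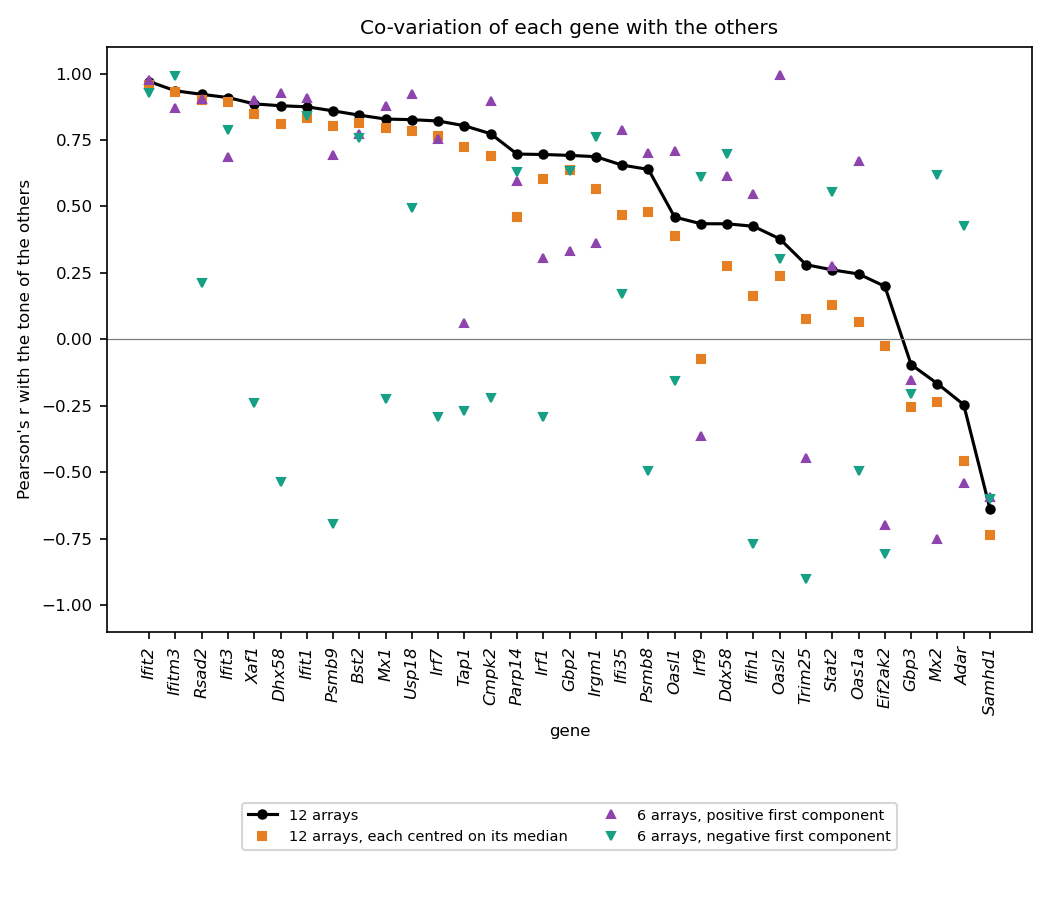
Pearson's r of each member gene with the tone of the other members (y axis), over 12 arrays, over 12 median-centred arrays and within the 6 arrays on each side of the first component. Ifit2, Ifitm3, Ifit3, Ifit1 and Bst2 stay at 0.69 or more within both sides, while Rsad2, at 0.92 over 12 arrays, falls to 0.21 and Xaf1 to -0.24 among the negative arrays.

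Markers of cell types and growth moved with the tone too, and their part in it was not tested. The summed signal of 12 stromal genes ran from 16157 to 43016 on treated arrays and from 18226.5 to 42707 on control arrays, and its log2 had an r of 0.79 with the tone, with 12 of 12 genes positive. Cxcl12, the chemokine of the stem cell niche, had an r of 0.87 and signals from 829 to 8196 on treated arrays and from 1136.5 to 9227 on control arrays. The sum of 7 cell cycle genes ran from 13828 to 35815 on treated and from 14820 to 34363 on control arrays with an r of -0.75, and 0 of 7 genes were positive. Of 11 macrophage genes 6 had a positive and 5 a negative r. The sum ran from 138494 to 174717 on treated and from 130215 to 175380 on control arrays (r 0.46), while Adgre1, which encodes the macrophage marker F4/80, had an r of -0.92 and Itgam, which encodes CD11b, -0.85. The sum of 5 plasmacytoid dendritic cell genes, a cell type known for interferon production, ran from 3152.5 to 5008 on treated and from 2859 to 4740 on control arrays (r 0.82), but its defining gene Siglech was dim, at 5.80 to 94.3 over all arrays, with an r of 0.25. The neutrophil list had an r of -0.76, the lymphocyte list -0.44, the HSC and progenitor list -0.54, the pan-leukocyte list 0.50, the endothelial list 0.31, the erythroid and megakaryocyte list 0.61 and the sex-linked list 0.06. The lists did not move as one. A positive r was found for 3 of 8 neutrophil genes, 4 of 7 lymphocyte genes and 4 of 7 HSC and progenitor genes, against the negative r of their sums.

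Other genes of the pathway were read from lists by role, 111 of them measured with 201 probe sets. None passed the adjusted threshold in limma. Before adjustment p was under 0.05 for 2 of the 201 probe sets with a higher mean, where this held for 2.81% of all probe sets. It was under 0.05 for 1 with a lower mean, where this held for 1.55% of all. Of 10 interferon ligands 3 were higher and 7 lower in mean. The smallest p of the list belonged to Ifna2, at 4.10 to 25.6 on treated and 7.10 to 30.2 on control arrays, and to Ifna1, at 10.7 to 83.8 and 4.70 to 50.2 in the same order. Ifnb1, the first type I interferon made by many cells, ran from 37.5 to 73.2 on treated and from 13.0 to 59.8 on control arrays and had an r of -0.09 with the tone. Ifng ran from 1.80 to 24.1 on treated and from 1.40 to 22.6 on control arrays, and Ifnz was the ligand with the highest r, 0.60, followed by Ifna4 at 0.55, which was at 1.30 to 19.9 over all arrays. Receptors, kinases and STATs split into 5 higher and 5 lower, and none had an r over 0.8. Ifnar1 ran from 1064 to 1407 on treated and from 1236.5 to 1455 on control arrays, with an r of -0.63, and Ifnar2 from 4325 to 5484 and from 4306 to 5465 in the same order, with an r of 0.54. Jak1, the kinase at Ifnar2, ran from 3835 to 4735 on treated and from 3768 to 4299 on control arrays, and Stat3, a factor of the cytokine response, had an r of 0.54.

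Of 9 negative regulators 3 were higher and 6 lower in mean. Socs3, which blocks cytokine receptors and is itself induced, ran from 503 to 1509 on treated and from 628 to 1227 on control arrays and had an r of 0.83. Ptpn2, a phosphatase of Jak1, had an r of 0.82 and Ptpn6, a phosphatase of blood cells, of -0.85. Socs1 was dim, at 4.10 to 45.7 over all arrays, with an r of -0.00, and Trim24, a restrainer of interferon signaling in mice, ran from 476 to 575 on treated and from 490 to 689 on control arrays. Of 15 sensors, adaptors and inducing factors 6 were higher and 9 lower, with none over 0.8 in r. The kinase gene Ikbke, which acts on Irf3, was the closest at 0.74, followed by the nucleic acid sensor Zbp1 at 0.68. The smallest p belonged to Tbk1, another kinase of Irf3, at 3585 to 4118 on treated and 3591 to 5067 on control arrays, and to the adaptor Myd88, with a median of 1909.8 on treated and 1691 on control arrays.

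Of 45 further interferon-induced genes 17 were higher and 28 lower in mean, and 8 (17.8%) had an r over 0.8, against 3.14% of all genes outside the members. Mndal, a member of the family of DNA-binding proteins around Ifi204, was the closest (r 0.93), with 3368 to 5251 on treated and 3433 to 5473 on control arrays. Epsti1 followed (r 0.90), with 1059 to 1517 on treated and 1027 to 1484 on control arrays. The smallest p of the list belonged to Ube2l6, the conjugating enzyme of Isg15, at 148 to 195 on treated and 170 to 237 on control arrays, and to Oas3, at 11.1 to 34.2 and 11.6 to 64.1 in the same order, neither of which followed the tone. Of 11 further antigen presentation genes none had an r over 0.8, and B2m and H2-K1, the chains of MHC class I, were the closest with 0.70 and 0.69. Tap2, the partner of Tap1, ran from 235 to 523 on treated and from 324 to 513 on control arrays, and Erap1, which trims peptides, from 563 to 778 and from 654 to 804 in the same order. Among 11 chemokines and ligands, Ccl12, a monocyte attractant, had an r of 0.83 with signals from 171 to 807 on treated and from 282.5 to 876 on control arrays, while Cxcl9, which interferon gamma induces, was at 0.80 to 45.9 over all arrays. Il18bp, which interferon gamma also induces, had an r of 0.77, and Ccl5, a chemokine for T cells, ran from 298 to 613.5 on treated and from 238 to 884 on control arrays.

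Outside these lists, among 8944 genes above the median level, the 10 whose signals were most like the tone were Prelid2 (r 0.98), Egln3, Pgm1, Grhpr, Arhgap28, Adm, Gzme, Cdk5rap3, Idh2 and Amotl1 (r 0.94). Adm, the peptide adrenomedullin, ran from 189 to 1963 over all arrays, and Egln3, an oxygen-sensing hydroxylase, from 107 to 445.5. The most opposite was Cebpa, a myeloid transcription factor, with an r of -0.97 and signals from 979.5 to 1945, followed by Myo9b and Cpeb4.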

How the data were processed

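Total RNA of 12 cultures was read on Affymetrix mouse arrays. The authors computed a signal intensity per probe set with GeneChip Operating Software 1.1.1, and the deposited values are this linear intensity. How the signal was summarised and to what target it was scaled is not stated in the methods or labels. Depth is not defined for arrays. Groups and replicate numbers came from the sample titles.

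A constant of 16 was added to each signal before log2. Of 45037 probe sets, 34945 had 1 gene symbol, 932 several and 9160 none listed. The comparison of the groups used R 4.3.3 and its package limma 3.58.1 (lmFit, eBayes, neither block nor filter, Benjamini-Hochberg over all probe sets, threshold 0.05), a script tested on simulated data. Tone and correlations were described without tests. Motifs were counted in RefSeq promoters of GRCm38.p6, which named no promoter for Mx1, Mx2, Usp18, Dhx58 or Parp14.

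The members, lists and rules were chosen with earlier results of these data known. Values by array are given for the member of each role with the smallest p and with the largest SD, the 4 smallest p in each direction, and the 4 highest and 4 lowest r with the tone; for other pathway genes, the 2 smallest p and 2 highest r of each list are named. Irf1, Irf7, Irf9, Ifit1, Oasl2, Ifih1, Dhx58, Trim25, Eif2ak2, Irgm1, Tap1 and Ifi35 are given as ranges. Ifnb1, Ifng, Ptpn6 and the single markers were picked after their values were seen. Alternatives covered scaling, the constant, a filter on dim probe sets, replicate blocks, limma's trend option, the methods' t-test, averaging probe sets, leaving out arrays and, chosen after seeing the data, numbers 3 and 4 alone or as a block and the first principal component as a covariate.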

Additional observations from a re-analysis of the deposited data

Results flagged for a closer look

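Wide gaps between 1 array and the rest of its group were looked for in 68 sets of 6 arrays, the 33 genes and the tone in each group. For the genes, gaps and ranges were taken on the log2 scale of the differences, with its added constant, while the signals printed here are linear. A gap was called wide when it took more than 0.625 of the group's range, which chance gives in about 1 of 20 sets. Such a gap was found in 4 sets. Mx2 had it in both groups. Treated 4 read 54.7, against 5.40 to 13.8 on the other treated arrays (gap 0.723 of the range), and control 5 read 60.7, against 6.70 to 14.5 on the other controls (gap 0.757). For Usp18, treated 1 read 64.4, below the 122 to 174 of the other treated arrays (gap 0.627) and below the 88.0 to 270 of the controls. For Ddx58, control 1 read 1104, above the 653 to 734 of the other controls (gap 0.778) and above the 550 to 717.5 of the treated arrays. Control 1 was also the array with the highest tone, and treated 1 the one with the lowest.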

How the results depend on the processing

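The count of member probe sets past limma's threshold was 0 in each setting run, and so was that of the other pathway genes. Over all probe sets it was 2. It became 1 with quantile normalization, median or 75th percentile centring, log2(signal + 1), the methods' t-test, numbers 3 and 4 as a block, or the first principal component as a covariate. It became 0 with log2(signal + 64), with probe sets above the median level only, with limma's trend and robust options or within numbers 3 and 4. Without numbers 3 and 4, where the Xist-bright arrays were all treated ones, it became 8. Leaving out each array in turn gave 0 to 4. The number of members with a higher mean, 12 of 33, ran from 7 (without control 4) to 20 (without control 3), the median difference from -0.10 to 0.05 and the median pairwise r from 0.31 to 0.42. That r, 0.37, became 0.25 when arrays were centred on the median of all probe sets and 0.53 within numbers 3 and 4.

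The replicate numbers were not taken to pair the samples, since not every same-numbered pair deviated together, though arrays 3 and 4 of both groups share near-floor Y-linked signals. Same-numbered arrays had deviations that correlated from -0.16 to 0.15 over all probe sets, over 0.1 for 4 of 6 pairs, and 1 of 6 treated arrays correlated best with its own number. With the replicate number as a fixed block the count was 0 for members and 0 for all probe sets, and as a random block 0 and 2.

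Near-zero differences changed sign easily. Of 888 pairs of a gene and a setting, 92 had a changed sign, 3 genes (Irf1, Stat2 and Samhd1) kept theirs in all 27 settings, and 0 pairs passed the threshold. Some settings leave each difference unchanged and could not turn a sign. These were the blocks by replicate number or by numbers 3 and 4, limma's trend and robust options and the methods' t-test. With each array left out in turn, the difference of Ifit2 ran from -0.19 to 0.10, of Ifit3 from -0.26 to 0.14, of Ifitm3 from -0.30 to 0.11 and of Rsad2 from -0.11 to 0.28. The first 3 turned positive without treated 1, treated 6, control 1 or control 3, and Rsad2 turned negative without treated 2, treated 5, control 2, control 4 or control 6. Ifit3 was at 0.015 with the first component as a covariate, Adar at -0.036 without numbers 3 and 4, and Cmpk2 at -0.048 with its probe sets averaged. The cause was not tested. For dim genes such as Mx2 the signal is close to background, which limits what can be read from them.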
